A study of Mus musculus with 4 samples.

Results

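Gene-desert peaks are stretches of accessible chromatin that lie far from any known protein-coding start. They were chosen by position alone: an autosomal peak was kept when it lay wholly outside the bodies of protein-coding genes and its nearer edge was more than 250 kb from every protein-coding start site on the mouse build mm10. By this rule 5805 of 97739 autosomal peaks were kept in the E10.5 list (5.94%, 95% Wilson interval 5.79 to 6.09) and 1648 of 36384 in the E11.5 list (4.53%, 4.32 to 4.75), 7453 peaks in all. Counting the sex chromosomes and unplaced sequence, both lists together held 136975 peaks. The intervals cover counting error only and treat neighbouring peaks as independent.

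The peaks come from ATAC-seq, in which the Tn5 transposase cuts open chromatin and tags it with sequencing adaptors. The cells were those of whole fore- and hindlimbs from mouse embryos of wild-type genotype, 2 replicates of E10.5 and 2 of E11.5, embryonic days of limb bud outgrowth and patterning. The titles give the earlier stage as E10.5 and the protocol as E10. The labels give both groups the same tissue and genotype and set them apart by stage. In both, limbs were taken apart with trypsin, fixed in paraformaldehyde and lysed before the transposase was added, and fore- and hindlimb were not kept apart. Each stage has 1 deposited peak list that joins both replicates. The stages therefore cannot be tested against each other, the spread between replicates and the depth of a sample are unknown, and every comparison below describes these lists.

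Gene deserts are long intervals without protein-coding genes. Many flank genes that control development, and enhancers inside them can act on a promoter over great distances through looping of the chromatin fibre within a topological domain. The limb is a textbook tissue for such control: the deserts beside Sox9, the master regulator of cartilage, and beside the genes of other patterning factors hold limb enhancers. Deserts also hold long non-coding RNAs (lncRNAs), some of which are the host transcripts of microRNAs.

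The start windows of 6 lncRNAs show what some of these peaks cover. Each window runs from 250 bp before to 50 bp after a start site of the RefSeq promoter table (GRCm38.p6), and each is shown because a gene-desert peak of both lists lies over it. Gm26901 carried the strongest E11.5 gene-desert peak outside the top 1% of signal per bp. Mir99ahg and Mir100hg are host genes of microRNAs. 2610035D17Rik lies in the desert next to Sox9, Gm32123 in the desert with most peaks and Gm32531 in the desert between Cdh11 and Cdh5. Capitals mark 4 short motifs on either strand, none of which contains another: GGGCGG, the GC box; CAGCTG, an E-box; TAATTA, a homeodomain core; and CATTGT, a core of Sox factors. A reverse-strand GC box reads CCGCCC.
Gm26901, chr1:7398047-7398346, minus strand: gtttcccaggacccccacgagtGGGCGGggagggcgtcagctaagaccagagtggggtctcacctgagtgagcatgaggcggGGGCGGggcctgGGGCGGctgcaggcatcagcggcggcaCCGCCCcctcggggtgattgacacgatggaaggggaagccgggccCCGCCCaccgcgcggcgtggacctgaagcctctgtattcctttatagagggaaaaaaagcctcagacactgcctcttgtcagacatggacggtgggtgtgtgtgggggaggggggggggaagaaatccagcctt
Mir99ahg, chr16:77329078-77329377, plus strand: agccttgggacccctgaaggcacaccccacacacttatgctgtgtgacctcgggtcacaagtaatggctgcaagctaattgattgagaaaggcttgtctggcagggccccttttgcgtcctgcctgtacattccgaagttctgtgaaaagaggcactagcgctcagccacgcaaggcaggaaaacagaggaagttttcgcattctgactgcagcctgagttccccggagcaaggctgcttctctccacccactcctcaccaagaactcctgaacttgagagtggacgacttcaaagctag
Mir100hg, chr9:41474643-41474942, plus strand: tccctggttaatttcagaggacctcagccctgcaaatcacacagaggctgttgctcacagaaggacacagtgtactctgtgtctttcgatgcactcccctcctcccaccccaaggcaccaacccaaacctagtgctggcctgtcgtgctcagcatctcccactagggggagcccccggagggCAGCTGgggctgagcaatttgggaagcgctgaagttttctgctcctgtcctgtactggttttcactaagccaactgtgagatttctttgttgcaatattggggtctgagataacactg
2610035D17Rik, chr11:113201789-113202088, minus strand: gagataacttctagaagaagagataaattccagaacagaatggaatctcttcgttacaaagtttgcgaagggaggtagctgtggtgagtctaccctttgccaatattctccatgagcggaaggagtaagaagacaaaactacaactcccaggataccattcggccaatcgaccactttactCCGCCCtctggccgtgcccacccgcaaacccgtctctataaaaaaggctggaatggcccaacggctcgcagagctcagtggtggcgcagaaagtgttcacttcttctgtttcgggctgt
Gm32123, chr14:25109011-25109310, plus strand: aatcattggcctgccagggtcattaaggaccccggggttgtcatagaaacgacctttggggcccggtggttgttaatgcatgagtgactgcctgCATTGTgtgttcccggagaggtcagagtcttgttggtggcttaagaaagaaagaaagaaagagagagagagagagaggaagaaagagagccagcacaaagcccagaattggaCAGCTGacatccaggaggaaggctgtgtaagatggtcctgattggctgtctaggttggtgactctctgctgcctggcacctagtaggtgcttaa
Gm32531, chr8:103270966-103271265, plus strand: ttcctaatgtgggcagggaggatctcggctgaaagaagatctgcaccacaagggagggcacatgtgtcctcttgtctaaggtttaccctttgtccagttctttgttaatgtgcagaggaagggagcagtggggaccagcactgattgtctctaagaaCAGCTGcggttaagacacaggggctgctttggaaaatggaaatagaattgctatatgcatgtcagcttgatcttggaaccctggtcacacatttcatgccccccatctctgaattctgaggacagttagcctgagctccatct

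In the Gm26901 window the script found 5 GC boxes, and the 300 bases held 18 CpG dinucleotides. The 2610035D17Rik window held 1 GC box and 13 CpGs. The Mir100hg, Gm32123 and Gm32531 windows each held 1 CAGCTG, the Gm32123 window also 1 CATTGT, and no motif of the 4 was found in the Mir99ahg window, which had 8 CpGs. A motif match is a description of the letters and not a site of binding.

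Mature microRNAs of these deserts are printed next, with the seed (bases 2 to 8), the stretch that pairs with target messages, in capitals. The first pair comes from separate hosts, Mir99ahg on chromosome 16 and Mir100hg on chromosome 9, and shares the seed ACCCGUA. miR-125b and let-7c come from the same hosts, and the miR-344 pair, which shares the seed GAUCUAG, comes from hairpins that a peak covered. All are from RefSeq, GRCm38.p6.
mmu-miR-99a-5p, chr16:77598940-77598961, plus strand: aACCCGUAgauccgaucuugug
mmu-miR-100-5p, chr9:41531437-41531458, plus strand: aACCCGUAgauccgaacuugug
mmu-miR-125b-5p, chr9:41581940-41581961, plus strand: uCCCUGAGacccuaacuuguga
mmu-let-7c-5p, chr16:77599672-77599693, plus strand: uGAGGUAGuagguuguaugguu
mmu-miR-344-3p, chr7:61940036-61940058, minus strand: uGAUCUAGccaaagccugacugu
mmu-miR-344c-3p, chr7:61837323-61837345, minus strand: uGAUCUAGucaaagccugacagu

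The labelled tissue was checked by peaks within 1 kb of a start site. All 9 limb mesenchyme markers, among them Prrx1, Msx1 and Hand2, had one at E10.5 and 7 of 9 at E11.5, where Tbx5 and Pitx1, which mark forelimb and hindlimb, had none. Of 5 ectoderm markers, 4 had such a peak in the E10.5 list, 3 in the E11.5 list, and Trp63 had none in either list. Of 6 genes typical of organs other than the limb, 3 had a start-site peak at E10.5 (Cdx2, Nkx2-5 and Neurog2) and 2 at E11.5. Among all autosomal protein-coding genes 70.7% had such a peak at E10.5 and 64.6% at E11.5, so marker counts this small are a weak check. A peak at a start site does not show that the gene is transcribed, and the part of other cell types in the results below was not tested.

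Gene-desert peaks ranked low in both lists. The deposited signal value, which the authors give per peak and which grows with width, had a median of 635 for gene-desert peaks against 837 for all autosomal peaks of the E10.5 list, and of 426 against 718 at E11.5. Ranked within its own list, the median gene-desert peak stood at percentile 41.1 at E10.5 and 33.4 at E11.5. Other peaks outside gene bodies, within 250 kb of a start, also stood low, at percentiles 45.1 and 35.5. Only 164 E10.5 gene-desert peaks (2.83%) and 14 at E11.5 (0.850%) were in the top decile of their list. They were also narrower, with a median width of 488 bp at E10.5 against 624 bp for the list, and 408 bp against 596 bp at E11.5; for the other peaks outside gene bodies the medians were 569 and 413 bp. Per bp of width the gap was smaller at E10.5, where the median stood at percentile 46.6, and about as large at E11.5, at percentile 34.2.

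The lists overlapped very unevenly, as lists of such different lengths must. Of the E10.5 gene-desert peaks, 1449 overlapped an E11.5 peak by at least 1 bp (25.0%, 23.9 to 26.1), below the 32% of all autosomal E10.5 peaks. Of the E11.5 gene-desert peaks, 1489 overlapped an E10.5 peak (90.4%, 88.8 to 91.7), against 91.9% of all autosomal E11.5 peaks. Without a partner were 4356 E10.5 peaks and 159 E11.5 peaks. Every partner of an E10.5 gene-desert peak was itself a gene-desert peak. Peaks outside gene bodies but within 250 kb of a start, the most similar class, overlapped in 24.5% (24.1 to 25.0) of E10.5 cases, and in 87.5% (86.9 to 88.1) of E11.5 cases. With the longer list cut by signal to the length of the shorter one, the shares of gene-desert peaks that overlapped were 59.8% for E10.5 and 58.0% for E11.5. No share over all autosomal peaks after this cut is given here. Whether gene-desert peaks then overlapped less or more than other peaks therefore cannot be read from these values.

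Overlap rose steeply with signal, so peaks were also set side by side within deciles of each list's signal ranking. At E10.5 the share of gene-desert peaks with an E11.5 partner climbed from 4.28% in the lowest decile to 94.5% in the highest. It was higher than that of all other peaks in 8 of 10 deciles and lower in the top 2. The widest gaps were 5.66 points in decile 6 (25.0% against 19.3%) and -5.92 points in decile 9 (75.2% against 81.1%). Other E10.5 peaks in the gene-desert peaks' mix of deciles would overlap in 22.6%, below the 25.0% counted. At E11.5 the corresponding share of other peaks was 88.6%, again below the 90.4% counted, although gene-desert peaks were lower in 4 of the 10 E11.5 deciles, by most in decile 9 (94.1% of 17 peaks against 99.8%). Pooled over this mix the overlap of gene-desert peaks was thus not lower than that of other peaks, but the direction differed between deciles. The intervals did not meet in 5 of the 10 E10.5 deciles. In deciles 3 to 6 gene-desert peaks were higher, with 21.7 to 28.6 against 18.5 to 20.2 in decile 6. In decile 9 gene-desert peaks were lower (70.5 to 79.4 against 80.3 to 81.9). At E11.5 the intervals did not meet in 3 deciles. Gene-desert peaks were higher in decile 4 (93.8% against 87.7%). They were lower in decile 8 (94.9% of 59 peaks against 99.3%) and in decile 9. The pooled shares therefore do not describe the stronger peaks, which overlapped less than other peaks in deciles 8 and 9 at E11.5 and in decile 9 at E10.5.

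**Figure D1:**
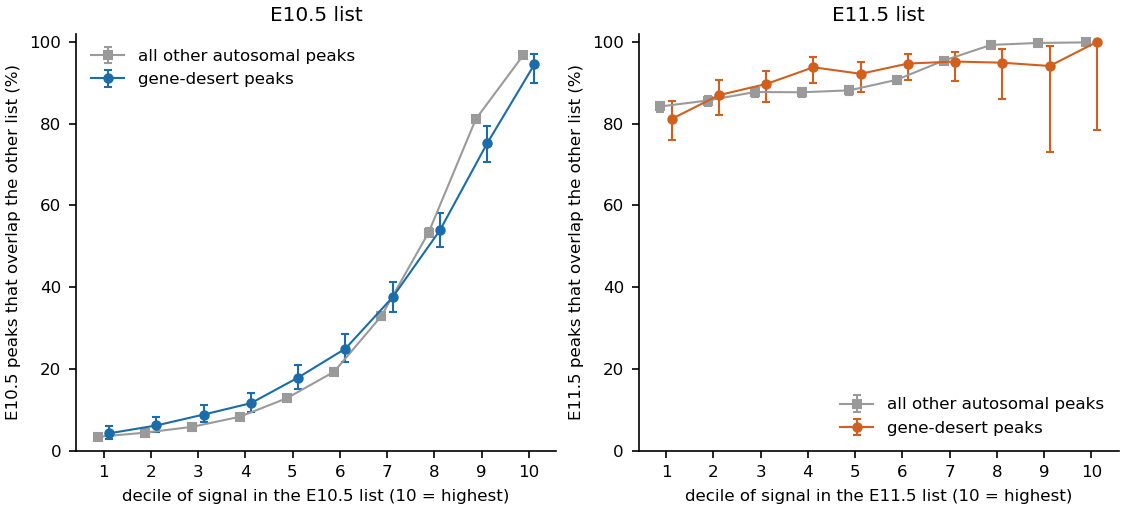
Share of peaks that overlap the other list by at least 1 bp (vertical axis, percent) in each decile of the signal ranking (horizontal axis, 10 highest), for gene-desert peaks (coloured circles) and all other autosomal peaks (grey squares); bars are 95% Wilson intervals. At E10.5 the share climbs from 4.28% to 94.5%, and gene-desert peaks lie above the others in 8 of 10 deciles.

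Among gene-desert peaks, overlap rose with distance from the nearest start in the E10.5 list and was lowest in the farthest class of the E11.5 list. Nearer to genes the E10.5 share went the other way. For peaks outside gene bodies it fell from 30.7% within 1 kb of a start to 22.1% at 100 to 250 kb. E10.5 peaks at 250 to 500 kb overlapped in 22.9% (21.6 to 24.1, 4201 peaks), those at 500 to 1000 kb in 29.2% (26.9 to 31.7, 1351 peaks) and those beyond 1000 kb in 37.2% (31.4 to 43.3, 253 peaks). Their signal percentile did not rise with it: the medians were 42.8, 37.1 and 36.5. At E11.5 the shares were 91.6%, 91.3% and 76.0% (67.8 to 82.6), the last over 125 peaks. On either side of the 250 kb limit the peaks looked alike. Just outside, at 225 to 250 kb, 24.2% of 872 E10.5 peaks overlapped at a median percentile of 43.0, and just inside, at 250 to 275 kb, 22.8% of 790 at 44.4. The E11.5 shares were 89.6% of 251 and 92.9% of 196.

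**Figure D2:**
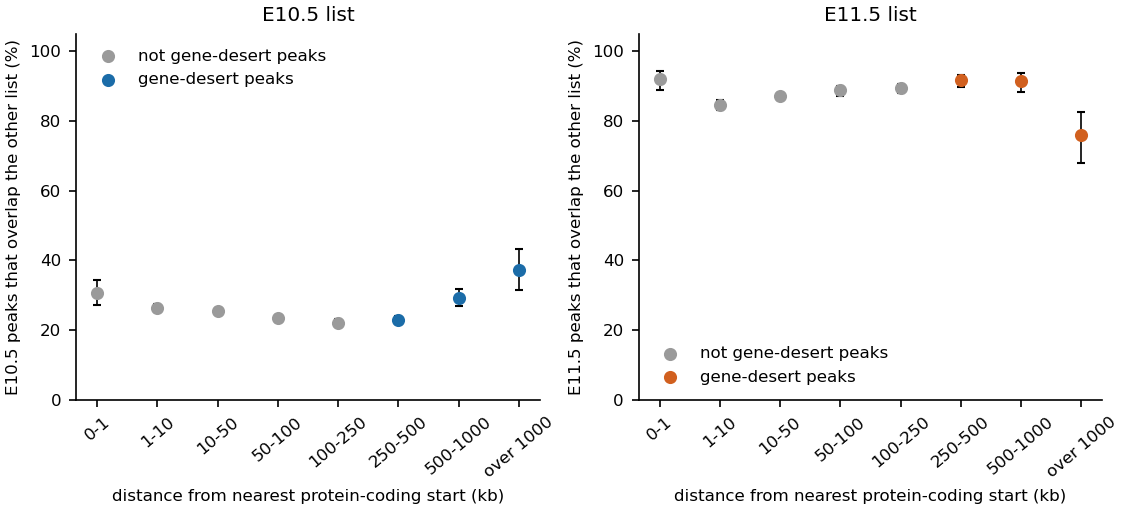
Share of peaks outside gene bodies that overlap the other list (vertical axis, percent) by distance from the nearest protein-coding start site (horizontal axis, kb); grey points lie within 250 kb, coloured points are gene-desert peaks, bars are 95% Wilson intervals. At E10.5 the share is lowest between 100 and 500 kb and reaches 37.2% beyond 1000 kb, and at E11.5 it is lowest there, at 76.0%.

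Partners sat on the same spot. Over the 1449 E10.5 peaks with a partner, the summits were a median of 18 bp apart, and 1299 pairs (89.6%) had summits within 200 bp. The E10.5 peak was the wider one in 1244 pairs (85.9%), with a median of 743 bp against 428 bp. Signal in the lists correlated with a Spearman rho of 0.48 over these pairs and of 0.69 over all 31262 shared autosomal pairs, a description over peaks of the same libraries. In 457 deserts or end stretches with peaks in both lists, the strongest peaks of the lists overlapped each other in 287 (62.8%).

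Deserts were taken as the unbroken stretches between neighbouring protein-coding genes that meet the rule. There were 731, with a median length of 351 kb and 457 Mb in all. Peaks of both lists were found in 455, of E10.5 alone in 151, of E11.5 alone in 10, and 15.7% of deserts held none. A median desert held 4 E10.5 peaks and 1 E11.5 peak. At E10.5 the 99 fullest deserts held 50% of the peaks, and the 12 with most peaks held 11.6% of them in 3.76% of desert length. The 14 E10.5 and 19 E11.5 remaining peaks lay before the first gene of a chromosome.

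Short deserts were the densest. Those up to 250 kb held 31.7 E10.5 and 6.85 E11.5 peaks per Mb, those over 2000 kb 4.55 and 1.98. The decline was smaller at E11.5, so that the number of E11.5 peaks per 100 E10.5 peaks rose from 21.6 in the shortest class through 24.3, 26.2 and 32.2 to 43.5 in the longest. The overlapping share of E10.5 peaks rose along the same classes, from 19.8% to 36.7%. By chromosome, E11.5 peaks per 100 E10.5 peaks ran from 10.7 on chromosome 19 to 52.2 on chromosome 16.

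The desert with most peaks lay on chromosome 14 between Rps24, a protein of the small ribosomal subunit, and Zmiz1, a PIAS-like transcriptional coactivator. Its 467 kb (chr14:24740754-25207874) held 74 E10.5 and 13 E11.5 peaks, or 158 and 27.8 per Mb against 12.7 and 3.56 over all deserts, and the fullest 100 kb held 24 and 7. All 13 E11.5 peaks overlapped an E10.5 peak, whereas 61 of the 74 E10.5 peaks had no partner. The strongest E10.5 peak, chr14:24825760-24829953, had a signal of 9498 (rank 2224 of the list) and lay 335 kb from Rps24; its E11.5 partner had 268 and ranked 31231. The strongest E11.5 peak, chr14:24778876-24779618, had 1685 (rank 11299) over an E10.5 peak of 9390. These 2 spots stood at percentiles 97.7 and 97.6 at E10.5, and at 14.2 and 68.9 at E11.5. The desert also held 13 lncRNA genes.

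Genes of adhesion receptors bounded the next. Between the latrophilin gene Adgrl2 and the related gene Adgrl4 on chromosome 3, 1949 kb held 59 E10.5 and 24 E11.5 peaks, more at E11.5 than any other desert. Of the E10.5 peaks 37.3% had a partner, and 23 of 24 E11.5 peaks did. On the other side of Adgrl2, towards the tubulin-modifying enzyme gene Ttll7, 1602 kb held 55 and 10, with 18.2% of the E10.5 peaks shared. The strongest E10.5 peak between Adgrl2 and Adgrl4, chr3:149844460-149846230, had a signal of 5695 (rank 7808) and an E11.5 partner of 981 (rank 15415).

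Deserts beside receptors and ligands of the ephrin system, which steer cell sorting and axon growth in the limb, were among the 12. Beside Epha4, a receptor, 1469 kb towards the anion exchanger gene Slc4a3 held 72 E10.5 and 9 E11.5 peaks, and 12.5% of the E10.5 peaks were shared. The strongest E10.5 peak there, chr1:76895637-76897634, had 6030 (rank 6986) and lay 617 kb from Epha4. Beside Efnb2, a ligand, 3056 kb towards the bile acid transporter gene Slc10a2 held 43 and 11, with 25.6% shared, and the strongest E10.5 peak, chr8:7322302-7323999, had 3855 and lay 1337 kb from Efnb2. Slc10a2 itself had no peak at its start in either list.

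Transcription factor genes flanked several more. Tbx3, a T-box factor of the posterior limb, bounded 610 kb towards the Mediator gene Med13l with 54 E10.5 and 6 E11.5 peaks (11.1% shared). Its strongest E10.5 peak, chr5:119250829-119252096, had 6763 (percentile 94.4 of its list) and lay 418 kb from Tbx3, over an E11.5 peak of 889 (percentile 55.3). Bcl11a, a zinc-finger repressor, bounded 1806 kb with 59 and 17 (27.1% shared), and Zeb2, a repressor of E-box genes, bounded 3197 kb with 39 and 19 (41.0% shared). Zfp608, which encodes a zinc-finger protein, bounded 895 kb towards Gramd3 with 54 and 12 (20.4% shared).

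Of the rest of the 12, the desert between the proliferation marker gene Mki67 and the DNA repair gene Mgmt held 68 E10.5 and 10 E11.5 peaks in 678 kb (14.7% shared). Its strongest peak of either list was the same spot, chr7:136212180-136215276 at E10.5. The signal there was 10347 at E10.5 (percentile 98.3 of its list) and 1064 at E11.5 (percentile 59.4). Between Cdh11, the cadherin of mesenchyme, and Cdh5, the cadherin of endothelium, 816 kb held 45 and 12 (26.7% shared). Between the lipid phosphatase gene Plpp3 and the deubiquitinase gene Usp24, 659 kb held 53 and 4 (7.55% shared), the fewest E11.5 peaks of the 12. Of the 23 genes that flank these 12 deserts, 21 had a peak within 1 kb of a start at E10.5 and 20 at E11.5.

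**Figure D3:**
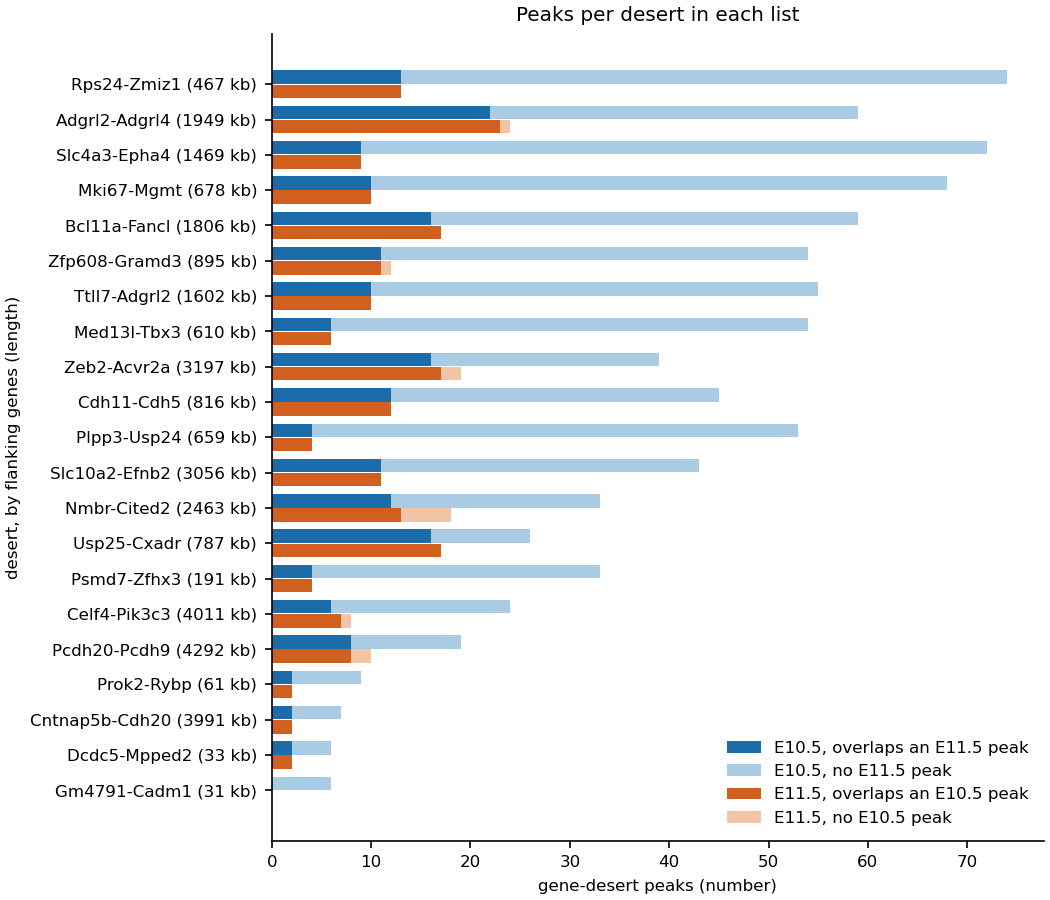
Number of gene-desert peaks (horizontal axis) in each named desert that held any (vertical axis, flanking genes and length), E10.5 in blue and E11.5 in orange; the dark part of a bar overlaps a peak of the other list. The Rps24-Zmiz1 desert leads with 74 E10.5 peaks, the Adgrl2-Adgrl4 desert has most E11.5 peaks, 24, and the E11.5 bars are dark apart from 5 of 18 peaks of the Nmbr-Cited2 desert and at most 2 in any other.

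**Figure D4:**
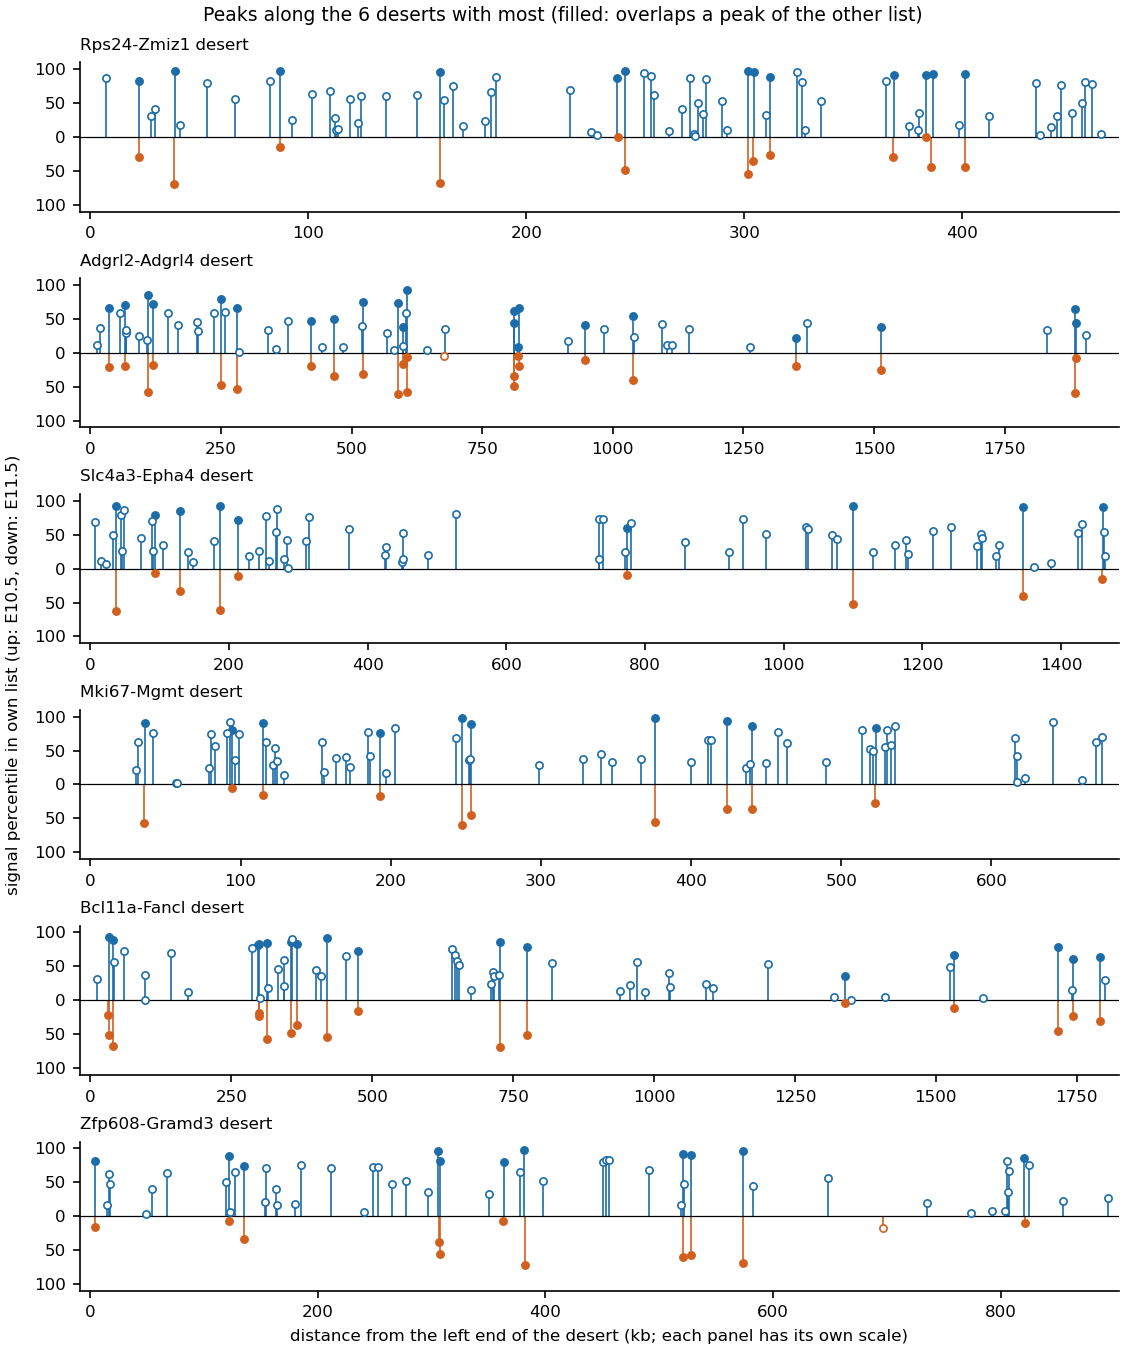
Peaks along the 6 deserts with most, by distance from the left end (horizontal axis, kb, 1 scale per panel); stems give the signal percentile within the own list, upward for E10.5 and downward for E11.5, and filled heads overlap a peak of the other list. The 74 E10.5 peaks of the Rps24-Zmiz1 desert lie all along its 467 kb, and its 13 E11.5 peaks are all filled.

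Ranked by E11.5 peaks, the leading 5 took in 2 further deserts. Beside Cited2, a CBP/p300-binding coactivator, 2463 kb towards Nmbr held 33 E10.5 and 18 E11.5 peaks, and 5 of the 18 had no E10.5 partner. Between Usp25 and the adhesion gene Cxadr on chromosome 16, 787 kb held 26 and 17, all 17 with a partner, and 61.5% of the E10.5 peaks were shared. Its strongest peak in both lists lay over the Mir99ahg start window printed above: chr16:77328774-77330173 at E10.5, signal 4755 (rank 10394), and chr16:77328776-77330412 at E11.5, signal 3001 (rank 6907).

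Among the 69 deserts with at least 20 E10.5 peaks the shared percentage ran from 6.82% to the 61.5% of the Usp25-Cxadr desert, with a median of 17.9%. The lowest value belonged to the desert between Sall1, a zinc-finger factor of limb and kidney, and Tox3: 3 of 44 E10.5 peaks were shared (2.35 to 18.2). Beside Id2, an inhibitor of helix-loop-helix factors, 2 of 22 were shared, and beside Fgf9, a growth factor, also 2 of 22.

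Per Mb, and among deserts with at least 5 peaks, the Rps24-Zmiz1 desert (186 over both lists) stood beside 4 smaller ones. A desert of 33.4 kb beside Mpped2 held 6 E10.5 and 2 E11.5 peaks (239 per Mb over both lists), and 191 kb between the proteasome gene Psmd7 and the homeobox gene Zfhx3 held 33 and 4 (194 per Mb). The strongest E10.5 peak of the latter, chr8:108026212-108029094, had 11513 (rank 1192), the E11.5 partner 1873 (rank 10504). Beside the adhesion gene Cadm1, 31.4 kb held 6 E10.5 peaks and none at E11.5, and beside Rybp, a Polycomb component, 61.0 kb held 9 and 2.

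The widest deserts were sparse. Between the protocadherin genes Pcdh20 and Pcdh9, 4292 kb held 19 E10.5 and 10 E11.5 peaks, 4.43 and 2.33 per Mb. It also held the peaks farthest from any start in each list: chr14:91391546-91391716 at E10.5, 2499 kb from Pcdh9, with a signal of 205, and chr14:91252208-91252465 at E11.5, 2638 kb away, with 272. Neither had a partner. The desert between Celf4 and Pik3c3 (4011 kb) held 24 and 8, and that between Cntnap5b and Cdh20 (3991 kb) held 7 and 2. The 3 widest deserts with no peak in either list lay between Lrfn5, a synaptic adhesion gene, and Fscb (2367 kb), between 4931408C20Rik and Gm597 (1593 kb) and between Pot1a and the glutamate receptor gene Grm8 (1216 kb). Empty deserts had a median length of 70.5 kb, against 420.3 kb for the others.

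Flanking genes were grouped by function, in lists written with earlier results of these data known. The lists split the ephrin system: Epha4, Epha7, Efnb2 and Efna5 were put with the limb regulators, and Epha3, Epha5 and Epha6 with the neural adhesion genes. Of 104 located limb and mesenchyme regulators, 57 flanked 68 deserts, which held 961 E10.5 and 195 E11.5 peaks, or 25.9 and 5.26 per Mb. Of 81 located genes of neural adhesion and synapses, 65 flanked 88 deserts with 668 and 265 peaks, or 5.54 and 2.20 per Mb. All deserts had 12.7 and 3.56 per Mb. The shared share of E10.5 peaks was 18.6% beside limb regulators, 34.9% beside neural adhesion genes and 24.8% in all deserts. A count of deserts with at least 20 E10.5 peaks went the same way: 19 of 69 (27.5%, 18.4 to 39.0) had a limb regulator at an end and 5 of 69 (7.25%, 3.13 to 15.9) a neural adhesion gene, against 9.30% and 12.04% of all deserts.

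Deserts beside neural adhesion genes were longer, and length itself moved with density. Within each of 5 length classes the E10.5 density beside limb regulators stayed above that of deserts flanked by neither list. From the shortest class to the longest it was 49.7 against 30.0, 33.4 against 24.7, 35.0 against 14.7, 17.6 against 9.92, and 10.6 against 3.98 peaks per Mb. Beside neural adhesion genes it was 16.4, 5.87, 10.9, 5.73 and 4.09, below the deserts of neither list in every class but the longest. At E11.5 the limb regulators' deserts were also above those of neither list in all 5 classes, with 9.40 against 6.65 per Mb in the shortest and 2.94 against 1.85 in the longest; the closest were 3.54 and 3.34, at 1000 to 2000 kb. The 2 longest classes beside limb regulators hold 5 and 4 deserts. Of the 119 E10.5 peaks in the longest, 43 lay beside Efnb2, 32 beside Efna5 and 24 beside Epha7, so this class rests largely on where ephrin genes were listed.

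**Figure D5:**
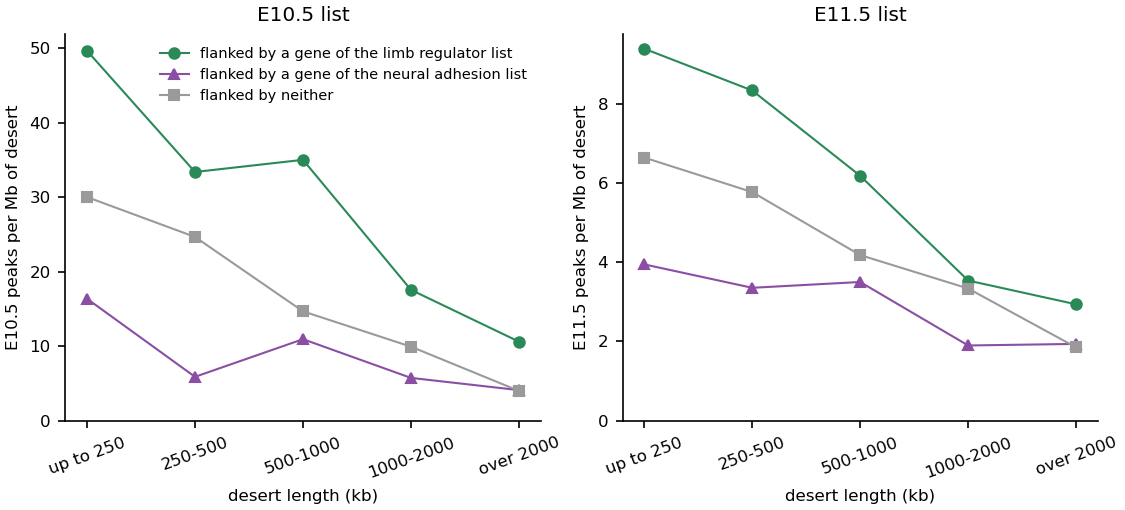
Gene-desert peaks per Mb of desert (vertical axis) in 5 classes of desert length (horizontal axis, kb), at E10.5 and E11.5, for deserts flanked by a gene of the limb regulator list (green), of the neural adhesion list (purple) or of neither (grey). At E10.5 the green points lie above the grey ones in all 5 classes, from 49.7 down to 10.6 peaks per Mb; the limb classes over 1000 kb hold 5 and 4 deserts.

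Among the limb regulators, counts varied widely. After Epha4, with 75 E10.5 and 9 E11.5 peaks over both of its deserts, came Sox9 with 60 and 8, Tbx3 with 54 and 6, Efnb2, an ephrin ligand gene, with 43 and 11, Zfhx3 with 43 and 5 and Sall1 with 44 and 3. Sall3, a paralogue of Sall1, had 38 and 7, Tshz1, a teashirt zinc-finger gene, 37 and 7, the receptor gene Epha7 32 and 10, the ligand gene Efna5 32 and 10, Irx1, an Iroquois homeobox gene, 31 and 9, and Ebf1 32 and 5. Classic patterning genes had fewer, in mostly shorter deserts. Summed per gene, desert length ran from 82.0 kb (Msx2) to 358 kb (Gli3) for those named below from Hand2 to Shh. For the genes above it ran from 354 kb (Zfhx3) to 4616 kb (Epha7), and the part of length in the counts was not tested. Hand2, which sets the posterior limb, had 12 and 7, Gli3, the hedgehog effector, 11 and 3, Bmp4 10 and 1, and Shox2, of the proximal limb, 9 and 2. En1, the ventral ectoderm factor, had 8 and 3, Msx2 7 and 0, Fgf10, which drives outgrowth, 3 and 1, and Shh, the posterior signal, 3 and 0. Alx1, Wnt5a and Zfhx4 flanked deserts with no peak in either list, of 16.8, 13.7 and 1210 kb.

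Beside the neural adhesion genes the fullest deserts were those of Cdh11 (58 E10.5 and 22 E11.5 peaks over both sides), a gene also expressed in mesenchyme, Flrt2 (60 and 17), Cdh8 (32 and 21), Robo1 (33 and 11), an axon guidance receptor, and Kirrel3 (35 and 7). Slitrk1 had 16 and 13, and Cntnap2 3 and 1. Cdh19, Lrfn5, Gria2, Nlgn1, Slitrk3 and Lrrn1 had none. Of 1585 olfactory, vomeronasal and other multicopy genes 4 flanked a desert, with 16 E10.5 and 2 E11.5 peaks.

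Genes next to deserts often had a peak at their own start. Of the 1277 flanking genes, 1053 had one within 1 kb at E10.5 (82.5%, 80.3 to 84.4), against 70.7% of all autosomal protein-coding genes, and 994 at E11.5 (77.8%, 75.5 to 80.0), against 64.6%. The background includes 1585 olfactory, vomeronasal and other multicopy genes, of which 4 flank a desert, and the part of this make-up in the gap was not tested. The share of flanking genes with a start peak moved little with the number of peaks in the desert. It was 79.5% (73.7 to 84.3) beside empty deserts and 84.3% (79.1 to 88.5) beside deserts with 20 or more peaks at E10.5, and 75.9% and 80.0% at E11.5.

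The strongest gene-desert peaks had an unusual height for their width. Of the 10 with most signal, 9 in each list belonged to the top 1% of their list by signal per bp, a class that held 44 of all E10.5 (0.758%) and 30 of all E11.5 gene-desert peaks (1.82%), and all 44 and 30 were shared. The first of both lists lay before Alkbh8, the first gene of chromosome 9: chr9:3009065-3038330 at E10.5, 29266 bp wide with a signal of 217744, and chr9:2999946-3038440 at E11.5, 38495 bp wide with 810904, the highest autosomal signal of either list. On chromosome 2, 4 peaks between Lrrc4c and Iftap lay within a few kb. The highest, chr2:98666183-98667389 at E11.5, had 45.4 signal units per bp, the most in its list, and 54761 in all (rank 7). Its E10.5 partner had 24.2 per bp and 28943 in all (rank 27). Peaks between Flrt2 and Galc (chr12:97061383-97061837, 27.7 per bp at E11.5) and between Pex2 and 1700008P02Rik (chr3:5860291-5860870, 14.2 per bp) belonged to the same class. Whether these stretches are accessible sites of the limb or stand high in any library was not tested.

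Outside that class the strongest peaks were wide, and some still stood high per bp. At E10.5 the first was chr4:131483355-131487916 between Matn1 and Ptpru, 4562 bp wide with a signal of 14274 (rank 523, percentile 88.7 by signal per bp) and over the lncRNA Gm35779; its E11.5 partner had 1382 (rank 12758). Next came 2 peaks between Ebf1, a mesenchymal and B-cell factor, and Clint1, with 11722 (chr11:45136260-45140081) and 11640 (chr11:45549133-45551915). At E11.5 the first was chr1:7396906-7398740 between Pcmtd1 and Sntg1, with 8519 (rank 450, percentile 98.9 by signal per bp), over the Gm26901 start window; at E10.5 the same spot had 7212 (rank 4736). The peaks beside Ebf1 were singled out after their values were seen.

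Peaks without a partner could still be strong at E10.5. The first was chr14:25063159-25066780 in the Rps24-Zmiz1 desert, 3622 bp wide with a signal of 7294 (rank 4581), and another of that desert, chr14:24993454-24995867, had 6686 (rank 5613). Between them stood chr11:113120803-113123007, 339 kb from Sox9, with 6784 (rank 5433). The list went on with chr12:107652018-107654716 beside Bcl11b, 5885, and chr7:136058353-136060211 in the Mki67-Mgmt desert, 5705. At E11.5 unshared peaks were weaker in rank: the first, chr3:8206460-8207804 beside Stmn2, had 2997 (rank 6916), the next, chr13:107577231-107578113 beside Zswim6, 2345 (rank 8796). The fifth, chr4:152869935-152870915 beside Nphp4, had 1718 (rank 11155).

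The 159 unshared E11.5 peaks were spread over 114 deserts and end stretches, 89 of which had 1 each. The stretch before Olfr161 at the start of chromosome 16 had 10 of its 17 E11.5 peaks unshared, against 8 E10.5 peaks in all. The Nmbr-Cited2 and Nphp4-Ajap1 deserts had 5 each, and the desert between Brinp3 and Pla2g4a had 3 E11.5 peaks and none at E10.5.

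Annotated lncRNAs took a larger share of the peaks than of the deserts' length. Bodies of lncRNA genes held 1251 E10.5 gene-desert peaks (21.6%, 20.5 to 22.6) and 348 at E11.5 (21.1%, 19.2 to 23.2), and covered 9.06% of desert length. Pseudogenes held 0.551% and 0.546% and covered 0.832%. At E11.5, 97.4% of the peaks inside lncRNA genes had an E10.5 partner and 88.5% of those outside. At E10.5 the shares were 26.0% and 24.7%.

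Start windows of lncRNAs like those printed above were hit more rarely than coding ones. Of 997 windows of 872 lncRNA genes in deserts, 123 were overlapped by an E10.5 peak (12.3%) and 43 by an E11.5 peak (4.31%). Of 20085 protein-coding windows, 66.5% and 60.4% were overlapped by a peak, and of 10314 other lncRNA windows 30.5% and 19.8%. The 106 E10.5 peaks over such windows stood at a median signal percentile of 61.6 against 40.8 for other gene-desert peaks, and 48 of them had a partner (45.3%, 36.1 to 54.8) against 24.6%. All 41 E11.5 peaks over windows had a partner (91.4 to 100), against 90.1% of the rest. Windows of 1 gene can overlap, so they are not independent.

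The letters of the windows differed too. Windows with a peak in either list had a median of 4 CpGs and 49.3% G and C, windows without one 2 and 43.3%, and protein-coding windows had 14 CpGs. GGGCGG was in 13.7% of the 124 windows with a peak, 3.44% of the 873 without, 47.0% of protein-coding windows and 36.0% of all 31396 start windows of the table. CAGCTG was in 22.6%, 14.0%, 15.6% and 16.3%, CATTGT in 12.9%, 23.7%, 10.4% and 12.2%. TAATTA was in 9.68% of windows with a peak and 10.3% of those without. GC content moves with these shares, and its part in them was not tested.

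The RefSeq table placed 43 of 919 autosomal microRNA hairpins in deserts, of which 5 were overlapped at E10.5 and 1 at E11.5. In the desert between Ubash3b and Gm40514 on chromosome 9, which holds Mir100, Mirlet7a-2 and Mir125b-1, an E10.5 peak lay over Mir125b-1 (chr9:41581686-41582613, signal 1713), while the nearest peaks to Mir100 and Mirlet7a-2 were 6.24 and 11.53 kb away. The start of the host Mir100hg had a peak in both lists, 2998 (rank 18028) at E10.5 and 411 (rank 24739) at E11.5. In the Usp25-Cxadr desert the hairpins Mir99a and Mirlet7c-1 lay 36.3 kb or more from any peak of either list, and the shared peak stood at the start of their host, Mir99ahg. The start windows of both hosts were printed because a peak of both lists lay over them, so their shared start peaks reflect that choice.

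The other covered hairpins were of the Mir344 cluster beside the imprinted gene Ndn on chromosome 7. Of its 13 hairpins in the desert 4 were covered at E10.5 (Mir344c, Mir344, Mir344-2 and Mir344i), each by 1 of the 4 E10.5 peaks of the desert. Mir344 alone was covered at E11.5, by the desert's only peak, with a signal of 370 (rank 26211) against 980 (rank 44192) at E10.5. The hairpins of this family resemble each other, and how reads that match several copies were placed is not given in the sources used here.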

How the data were processed

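ATAC-seq of pooled fore- and hindlimb cells was deposited as 1 peak list per stage (E10.5 and E11.5), each joining both replicates of 4 samples in all. The submitters' processing notes name cutadapt, Bowtie2, SAMtools, deepTools, Genrich and the build mm10. Their roles, versions and settings, a shift of reads for Tn5 and how replicates were joined are not given in the sources used here. The deposited signal value is the authors' value per peak, and the smallest in either list is 200.002. The deposited score is the signal per bp of width times 1000, capped at 1000, and was not used. The deposited −log10 p-value served as an alternative ranking and filter. The deposited q-value column holds -1 throughout. Per-sample depth is unknown, and more depth can give a longer list.

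Gene bodies came from a RefSeq table and start sites from it and the RefSeq promoter table (GRCm38.p6, the mm10 assembly). Of 20558 autosomal protein-coding genes, 16457 took their strand from the promoter table and 3897, by symbol, from GENCODE M1, whose coordinates were not used. The 204 without strand counted both ends as starts. In the table, 333 autosomal genes, 107 of them protein-coding, follow a step back in coordinates and belong to unplaced scaffolds or patches, and were left out. Coordinates are 1-based mm10, and shared means an overlap of at least 1 bp. Shares carry 95% Wilson intervals.

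Named were the 12 deserts with most peaks over both lists, the 5 with most E11.5 peaks and the 5 with most per Mb, the 3 widest and the 3 widest empty ones, their flanking genes and strongest peaks, the 10 strongest peaks of each list, the 5 strongest without overlap, the farthest peak and the listed genes that flank a desert. The peaks, gene lists and motifs were chosen with earlier results of these data known. The genome sequence of mm10 was not used here, so peak sequences are not printed. The counting was tested on simulated data. Python 3.11.15, numpy 2.4.6, pandas 2.3.3 and matplotlib 3.10.9 were used.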

Additional observations from a re-analysis of the deposited data

Results flagged for a closer look

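The X chromosome was outside the rule, and peaks were found there too that lay outside gene bodies and more than 250 kb from any start. They numbered 59 of 1559 X-linked peaks at E10.5 (3.78%, 95% Wilson interval 2.95 to 4.85) and 16 of 970 at E11.5 (1.65%, 1.02 to 2.66). Both shares were below those of the autosomes, 5.94% at E10.5 and 4.53% at E11.5. They had a median signal of 554 in the E10.5 list and 281 in the E11.5 list. They were singled out because no comparison above uses the X chromosome, and not for their number.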

How the results depend on the processing

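Of 71 recomputed values, 31 stayed within their interval or within 1.5 times the count and 40 moved; no test exists, so no call was lost. With a limit of 100 kb there were 14308 and 3870 peaks at E10.5 and E11.5, 23.3% of the E10.5 peaks were shared and their median percentile was 42.8. With 500 kb there were 1604 and 564, 30.5% and 87.9% were shared, the E10.5 percentile was 36.8 and the Rps24-Zmiz1 desert held 0. With genes of every biotype 217 and 82 were left, 31.8% and 80.5% shared, at an E10.5 percentile of 38.7, and that desert again held 0. With a −log10 p of at least 5 there were 2854 and 529, 16.6% and 88.5% shared, at percentiles 37.3 and 23.3, and 43 in that desert. Without the top 1% by signal per bp 88.6% of E11.5 peaks were shared. With the E10.5 list cut to the length of the E11.5 list by signal, 1521 E10.5 peaks were left, 59.8% and 58.0% were shared, the E10.5 percentile was 34.1 and that desert held 46; cut by −log10 p the values were 1583, 62.5% and 62.6%, 34.1 and 44. A reciprocal overlap of 50% gave 15.7% and 55.3%, and summits within 200 bp 22.8% and 80.5%. Ranked by signal per bp or by −log10 p, the E10.5 percentile was 46.6 or 42.5. The cause of these moves was not tested beyond the smaller or larger sets that each setting makes. No share over all autosomal peaks was set beside the overlap shares of these settings. Rps24-Zmiz1 stayed first by E10.5 peaks, by those of −log10 p of at least 5 (41) and at 100 kb (130 peaks); Adgrl2-Adgrl4 led by E11.5 peaks (24) and at 500 kb (55), and Dcdc5-Mpped2 per Mb. No paired analysis was possible because replicates were joined into 1 list before deposit, so none could be dropped either. The unknown depth of the libraries limits every difference in length between the lists.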
